A study of Mus musculus with 6 samples.

Results

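The transcripts of 4 Notch receptors, 5 of their ligands and the inhibitor Numb were examined in whole embryos of the FVB mouse strain, at day 10.5 of gestation, in 3 pools from diabetic and 3 pools from normal pregnancies. The genes were Notch1, Notch2, Notch3 and Notch4, the ligands Dll1, Dll3, Dll4, Jag1 and Jag2, and Numb. They were 10 of the 18194 genes that the array's annotation names alone at 1 or more probe sets. A probe set is a group of short oligonucleotides on an Affymetrix whole-genome mouse array that reads 1 transcript or a few. All probe sets annotated with only 1 of these symbols were taken, which gave 20 of the 45101 on the array, by annotation alone. Mothers of the diabetes-exposed embryos were FVB females made diabetic with streptozotocin, a toxin of the insulin-producing pancreatic cells, in 2 injections of 100 mg per kg each, with a required blood glucose of over 250 mg per dl. Control embryos came from females without diabetes. Both groups were of the same inbred strain with no engineered allele named, and all embryos were morphologically normal by the study's account. A pool combined the RNA of 3 embryos taken from separate pregnancies and was read on 1 array, so that each group held 9 embryos. As a model, the pools average over whole embryos and over litters: fewer cells of a type and less RNA per cell cannot be told apart, and effects of the drug and of the diabetes it caused cannot be told apart either.

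Notch receptors are single-pass membrane proteins that are activated by ligands of the Delta-like and Jagged families on a neighbouring cell. Binding leads to cleavage of the receptor by a metalloprotease and then by gamma-secretase, and the released intracellular part enters the nucleus, where it joins the DNA-binding protein Rbpj and a Mastermind-like coactivator to switch on Hes and Hey genes. At midgestation the pathway is known for keeping neural progenitors undifferentiated, for timing the formation of somites, and for shaping arteries and the chambers and outflow tract of the heart.

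With signals as deposited, the receptors and the Delta-like ligands Dll1 and Dll3 were lower in the diabetes-exposed embryos. At the brightest probe set of each gene, the one with the highest mean log2 signal over all 6 arrays, all 4 receptors and Dll1 and Dll3 fell, by 1.27-fold for Notch2 and by up to 3.66-fold for Notch1. Numb was higher there but lower at its other probe set, and Dll4, Jag1 and Jag2 did not pass the test at the brightest. Thus 6 of 10 genes were lower and 1 was higher, where 19.9% of all 13956 genes tested were lower and 17.6% were higher. A gene or probe set is said to have risen or fallen where its adjusted p was under 0.05, in a limma fit on log2 signals adjusted over 30024 probe sets. The median log2 fold change, diabetes-exposed minus control, was -0.67 over these 10 genes and close to 0 over all genes. Notch2 and Notch4 were not called after median centring, quantile or cyclic loess normalization, which each left 4 genes lower. Notch2 also lost its call without any 1 pool except exposed pool 1, and Notch4 without control pool 1 or 2. The other tested probe sets of Notch2 and Notch4 were not called, with log2 fold changes of 0.24 and 0.49.

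At the level of probe sets, 19 of the 20 were bright enough to be tested. Of these, 10 were lower and 1 was higher, against 21.8% lower and 14.4% higher among all probe sets tested. The groups did not overlap at 12 of the 19, in that every exposed pool lay below every control pool at 11 and above at 1. Over all tested probe sets, 28.0% had the exposed pools all lower and 21.9% had them all higher. The share of lower probe sets was thus larger among these genes than in the whole table, and that of higher ones smaller. Their median log2 fold change was -0.84, against -0.05 over all tested probe sets. The plot of signals in each pool shows the brightest probe set of each gene.

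**Figure D1:**
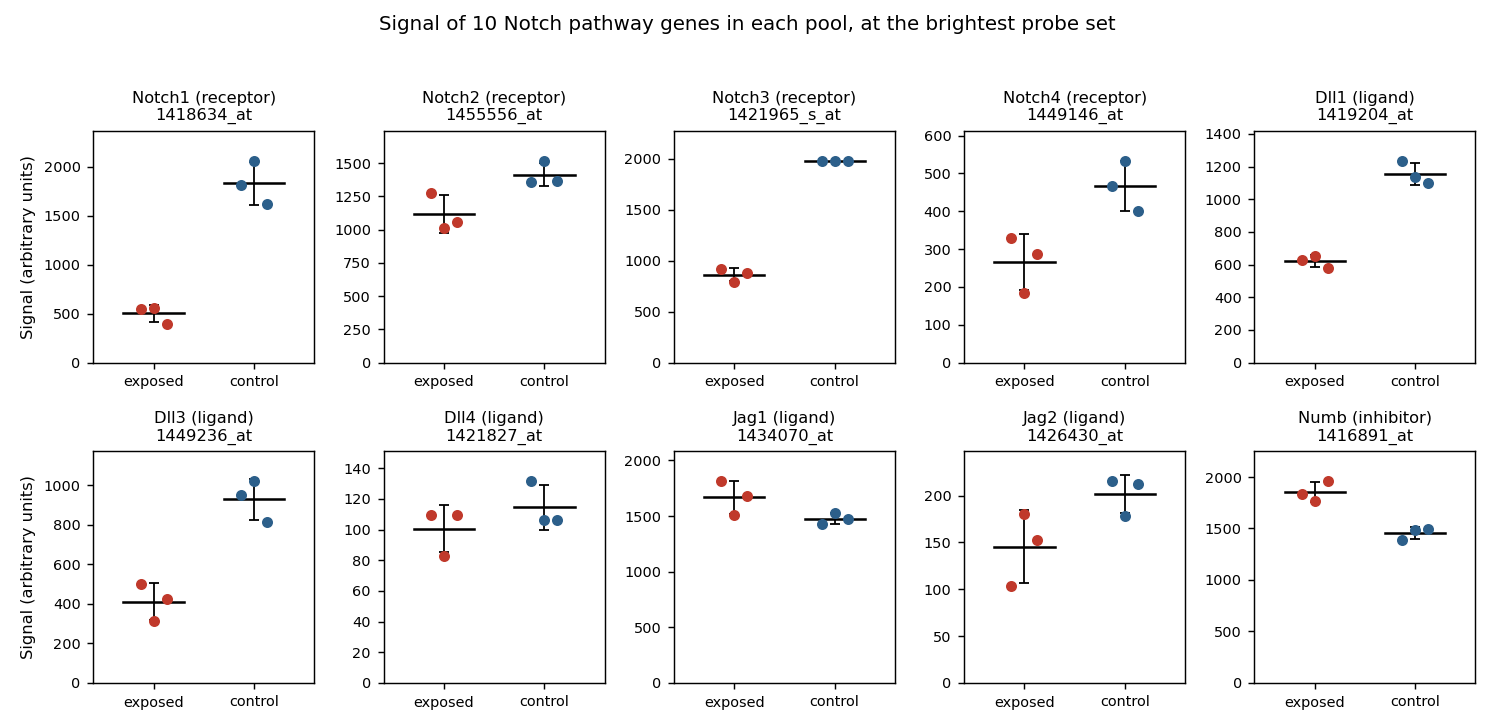
Signal (arbitrary units, linear axis from 0) of the brightest probe set of each of 10 genes in 3 diabetes-exposed pools (red) and 3 control pools (blue). Points are pools, the long bar is their mean and the whiskers are its SD. The exposed pools lie below all control pools for Notch1, Notch2, Notch3, Notch4, Dll1 and Dll3 and above them for Numb, and the groups overlap for Dll4, Jag1 and Jag2.

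Several properties of the whole series bear on these values. The deposited signals were scaled to a common mean on each array, but the median signal was 74.1 to 78.9 on the exposed arrays and 82.5 to 103.3 on the control arrays. Scaling to equal medians moved all log2 fold changes up by 0.32, quantile normalization moved their median up by 0.17 and cyclic loess normalization by 0.07. In the same order, 29.0%, 21.0% and 16.2% of all tested probe sets were then higher and 13.3%, 17.5% and 19.9% lower. RNA and labelling controls also differed between the groups. The ratio of the 3' to the 5' signal of beta-actin was 10.1, 3.10 and 10.3 on the exposed arrays and 1.71, 1.76 and 2.19 on the control arrays. For the poly-A spikes, bacterial RNAs added as a control of labelling, the ratio of 3' to middle signal was 6.56, 3.47 and 7.00 on the exposed arrays and 2.10, 2.07 and 2.52 on the control arrays. The groups did not overlap in either ratio (two-sided exact permutation test p = 0.1, the smallest that 3 against 3 allows). Since these ratios themselves separate the groups, labelling and exposure cannot be told apart in this design. A call kept or lost with such a ratio as a covariate does not divide their effects. The changes of the genes are also given from a fit with the spike ratio as a covariate, in which 1.11% of all probe sets were lower and 0.0966% were higher. For genes the shares were 1.73% and 0.0788%. In that limma fit 4 of the 19 probe sets were lower and 0 were higher (7 and 0 at an unadjusted p under 0.05). At the brightest probe set 3 of the 10 genes were lower, namely Notch1, Notch3 and Dll3, and 0 were higher (6 and 0 unadjusted).

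Markers of the cell types in which these genes act were read in the same pools. Beside the counts below stand the shares over all genes in the limma fit, 19.9% lower and 17.6% higher. A summed signal weighs bright markers most, such as Fabp7 and Sox2 among neural progenitors, Acta2 among mural cells and Actc1 and Myl7 in heart. Of 7 markers of neural progenitors, 5 fell and 1 rose, and their summed signal was 11810 to 13850 in the exposed pools and 14620 to 15570 in the control pools. Of 5 neuronal markers 3 fell, with sums of 6240 to 7074 in exposed pools and 8040 to 9314 in control pools. Endothelial markers were mixed, with 2 of 8 higher and 2 lower and sums of 4199 to 5073 in exposed pools and 4481 to 4508 in control pools. For presomitic mesoderm and somites, 1 of 6 tested markers fell, with sums of 1761 to 2088 in exposed and 1994 to 2148 in control pools. Of the 5 mural and smooth muscle markers 3 rose, with sums of 11910 to 13680 in exposed pools and 7644 to 7754 in control pools. Of the 5 heart markers 4 rose, with sums of 25480 to 27830 in exposed pools and 15130 to 18030 in control pools. Globins of primitive red cells did not pass the test. Prl8a2, a prolactin relative made by maternal decidua, averaged 36.3 in the exposed pools and 6211 in the control pools. Its log2 fold change in the limma fit was -7.42 (adjusted p = 9.67e-08), and -7.20 with the spike covariate (adjusted p = 3.12e-05). The 3 other decidual and placental markers with a probe set were too dim to be tested. With the spike covariate in the limma fit, 2 neural progenitor markers were lower, 2 mural and smooth muscle markers and 1 heart marker (Myl7) were higher, and 0 neuronal, endothelial or somite markers were called (at an unadjusted p under 0.05, 3 neuronal markers lower and 2 endothelial markers higher). The methods' t-test, as run here on log2 signals, called 2 neural progenitor markers lower and Prl8a2 lower, and 0 of the other lists (unadjusted, it had 4 heart and 3 mural markers higher and 3 neuronal markers lower). No marker was listed at 0, and the part of any of these tissues in the results below was not tested.

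Notch1, the receptor most widely used in the early embryo, was the most changed of the receptors at the brightest probe sets. At 1418634_at its signals were 546.8, 563.6 and 400.0 in the diabetes-exposed pools and 1819.3, 2059.1 and 1617.9 in the control pools. Each exposed pool lay far below the lowest control pool. The log2 fold change was -1.87 ± 0.15 (SE, n = 3 pools per group, adjusted p = 0.000233), or 3.66-fold lower. With the spike ratio as a covariate it was -1.41 (adjusted p = 0.0484), and it was called with any 1 pool left out and under each scaling. A second and dimmer probe set, 1418633_at, read 184.0, 152.7 and 107.0 in the exposed pools and 457.6, 506.7 and 301.5 in the control pools. It fell 2.85-fold (-1.51 ± 0.26, adjusted p = 0.00287), and with the covariate its adjusted p was 0.395.

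Notch3, a receptor of vascular smooth muscle and of the neural tube, had the smallest spread of control values among the 20 probe sets. At 1421965_s_at the signals were 917.3, 794.6 and 880.1 in the exposed pools and 1974.9, 1975.0 and 1976.5 in the control pools. The 3 control signals were nearly equal, and all exposed pools lay far below them. The suffix _s_at marks a probe set that may bind transcripts of more than 1 gene. Its log2 fold change was -1.20 ± 0.09 (SE, adjusted p = 0.000195), or 2.29-fold lower, and -1.41 with the spike covariate (adjusted p = 0.0146). The probe set with no such suffix, 1421964_at, read 155.4, 185.9 and 129.0 in the exposed pools and 807.8, 998.0 and 702.4 in the control pools. All exposed pools were far below all control pools. Here Notch3 was 5.34-fold lower (log2 fold change -2.42 ± 0.19, adjusted p = 0.000195), and -1.78 with the covariate (adjusted p = 0.0397). Notch3 was the only gene of the 10 to pass at each of several probe sets both with and without the covariate.

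The promoters of Notch1 and Notch3 are shown because these receptors fell furthest. Promoter sequences were taken from RefSeq, build GRCm38.p6, and run 5' to 3' on the gene's strand over 250 bases before and 50 after the most upstream transcription start. A promoter was found for each of the 10 genes. Capitals mark the GC box, GGGCGG or its reverse complement CCGCCC, a motif bound by Sp1-type factors.
Notch1, minus strand, chr2:26503773-26504072: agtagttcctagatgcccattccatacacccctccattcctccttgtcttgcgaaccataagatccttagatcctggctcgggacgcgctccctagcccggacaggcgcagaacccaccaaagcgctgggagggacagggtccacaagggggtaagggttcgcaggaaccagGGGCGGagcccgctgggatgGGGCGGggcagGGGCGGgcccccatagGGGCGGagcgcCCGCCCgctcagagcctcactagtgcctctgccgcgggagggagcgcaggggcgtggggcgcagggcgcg
Notch3, minus strand, chr17:32166841-32167140: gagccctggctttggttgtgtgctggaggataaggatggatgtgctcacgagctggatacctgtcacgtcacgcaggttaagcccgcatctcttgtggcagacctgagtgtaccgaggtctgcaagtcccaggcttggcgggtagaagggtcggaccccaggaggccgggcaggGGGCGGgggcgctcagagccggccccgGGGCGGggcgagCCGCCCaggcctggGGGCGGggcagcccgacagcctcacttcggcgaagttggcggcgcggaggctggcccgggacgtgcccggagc
The Notch1 promoter held 5 GC boxes and 68.3% G and C, and that of Notch3 held 4 GC boxes and 70% G and C, where the median over all 32851 mouse promoters was 52.7%. Among the 10 genes 7 had a GC box in this window, which is found in 35.7% of all promoters. The core of the Rbpj site (TGGGAA), searched like the others on both strands, was in 0 of the 10 windows and in 25.6% of all promoters. A CCAAT box (CCAAT) was in 3 of 10, against 37.4%, and a TATA box (TATAAA) in 0 of 10, against 13.6%. None of these motifs contains another, and a match is only a description of these letters.

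Notch2, a receptor with broad embryonic expression and a known role in kidney, liver and heart, changed least among the receptors. The signals at 1455556_at were 1277.8, 1012.3 and 1058.7 in the exposed pools and 1359.2, 1515.5 and 1367.7 in the control pools. Exposed pool 1 lay just under the lowest control pool, so the groups were apart by a small gap. The fall was 1.27-fold (-0.35 ± 0.11, adjusted p = 0.0420). The adjusted p was 0.0694 without exposed pool 2, 0.124 without exposed pool 3, and 0.0889, 0.154 and 0.0668 without control pools 1, 2 and 3. After median centring the log2 fold change was -0.03 (adjusted p = 0.876), and with the spike covariate -0.54 (adjusted p = 0.294). The other Notch2 probe set, 1451889_at, was dim and read 64.5, 55.9 and 18.6 in the exposed pools and 39.0, 19.7 and 52.6 in the control pools. The groups overlapped and it was not called (0.24 ± 0.60, adjusted p = 0.786).

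Notch4, the receptor known chiefly from endothelium, was 1.79-fold lower at 1449146_at. Its signals were 329.0, 183.3 and 286.3 in the exposed pools and 465.4, 532.2 and 401.0 in the control pools. The groups were apart, with exposed pool 2 the lowest. The log2 fold change was -0.84 ± 0.22 (adjusted p = 0.0188), but the adjusted p was 0.0598 without control pool 1, 0.0728 without control pool 2, and 0.0851, 0.0919 and 0.0628 after median centring, quantile and loess normalization. It was -1.62 with the spike covariate (adjusted p = 0.0870). The 2 other Notch4 probe sets were dim. At 1436901_at signals ran between 26.7 and 41.6 in exposed pools and between 17.5 and 34.4 in control pools, with overlap (adjusted p = 0.464). At 1456263_at they ran between 7.5 and 52.5 in exposed pools and between 11.3 and 33.0 in control pools, and this probe set was too dim to be tested.

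Among the ligands, Dll1 and Dll3 fell. Dll1 is the Delta-like ligand of presomitic mesoderm and of newborn neurons, where it signals to neighbouring progenitors. Its 1 probe set, 1419204_at, read 629.4, 652.2 and 578.6 in the exposed pools and 1233.0, 1134.2 and 1100.3 in the control pools. Both groups were tight and clearly apart. Dll1 was 1.86-fold lower (-0.90 ± 0.10, adjusted p = 0.000710), and was called with any 1 pool left out and under each scaling. With the spike covariate the log2 fold change was -0.72 with a 95% interval of -1.16 to -0.27, and the adjusted p of 0.136 missed the threshold.

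Dll3, a divergent ligand that works within its own cell in the somite clock and does not activate receptors on neighbours, fell 2.29-fold. At its 1 probe set, 1449236_at, it read 498.3, 314.4 and 422.4 in the exposed pools and 948.7, 1019.8 and 816.6 in the control pools. Exposed pool 2 had the lowest Dll3 signal. Its control ratios were the lowest of the exposed pools but above those of all control arrays, and their part in the Dll3 values was not tested. The log2 fold change was -1.19 ± 0.18 (adjusted p = 0.00167) and -1.74 with the spike covariate (adjusted p = 0.0399). Dll3 was thus the only ligand called in both fits. Its promoter is shown as that of the ligand called in both fits, with GC boxes again in capitals.
Dll3, minus strand, chr7:28301736-28302035: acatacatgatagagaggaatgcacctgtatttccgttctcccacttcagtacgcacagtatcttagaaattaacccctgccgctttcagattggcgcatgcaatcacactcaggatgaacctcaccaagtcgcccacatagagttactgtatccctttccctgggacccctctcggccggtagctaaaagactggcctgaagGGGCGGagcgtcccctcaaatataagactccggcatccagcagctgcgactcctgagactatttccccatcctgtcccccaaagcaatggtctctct
It held 1 GC box, 1 CCAAT box and 52% G and C, close to the median of all promoters.

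Dll4, the ligand of arterial endothelium, gave different values at its 2 probe sets. The brighter one, 1421827_at, read 109.4, 82.9 and 109.5 in the exposed pools and 131.4, 106.2 and 105.9 in the control pools. The groups overlapped, and the log2 fold change of -0.19 had a 95% interval of -0.72 to 0.33 (adjusted p = 0.560) and turned positive after median centring (0.13) and quantile normalization (0.12). It was -0.63 with the spike covariate (adjusted p = 0.611). The dimmer one, 1421826_at, read 71.3, 60.1 and 8.1 in the exposed pools and 174.0, 176.4 and 91.0 in the control pools. Every exposed pool was below every control pool there, with exposed pool 3 far below the other two. The log2 fold change was -2.11 ± 0.76 and missed the threshold (adjusted p = 0.0592), and was 0.12 with the spike covariate (adjusted p = 0.983). It passed without exposed pool 1 (-2.67, adjusted p = 0.0448) or exposed pool 2 (-2.55, adjusted p = 0.0301), while without exposed pool 3 the change was -1.105 (adjusted p = 0.0558).

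Jag1, the ligand whose loss in humans causes Alagille syndrome and which acts in heart, vessels and inner ear, was not called at any of its 3 probe sets. At the brightest, 1434070_at, it read 1811.8, 1513.4 and 1675.8 in the exposed pools and 1428.5, 1523.6 and 1475.7 in the control pools. Exposed pool 2 lay among the control pools and the other two above them. The log2 fold change was 0.17 with a 95% interval of -0.05 to 0.39 (adjusted p = 0.199). It was 0.24 without exposed pool 2 (adjusted p = 0.0493), 0.49 after median centring (adjusted p = 0.0124) and -0.06 with the spike covariate (adjusted p = 0.903). The dimmer probe sets 1421105_at and 1421106_at had log2 fold changes of -0.77 and -0.49 (adjusted p = 0.189 and 0.163), with overlapping groups.

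Jag2, a ligand needed for limb and palate development, was measured at 2 probe sets. The brighter one, 1426430_at, read 103.7, 180.3 and 152.9 in the exposed pools and 215.3, 178.2 and 212.1 in the control pools. Exposed pool 2 stood above control pool 2, and the log2 fold change of -0.50 with a 95% interval of -1.04 to 0.03 did not pass (adjusted p = 0.129), though it did without exposed pool 2 (-0.68, adjusted p = 0.0462). Without exposed pool 1 the change was -0.28 (adjusted p = 0.351). The dimmer one, 1426431_at, read 67.4, 60.1 and 42.5 in the exposed pools and 152.0, 83.9 and 110.1 in the control pools. These were apart and 2.01-fold lower (-1.01 ± 0.32, adjusted p = 0.0370). That call was lost without exposed pool 1 (0.0512) or 3 (0.109), without control pool 1 (0.148) or 3 (0.0737), and after median centring (0.106), quantile (0.0892) and loess normalization (0.0515). Jag2 had log2 fold changes of 0.04 and -0.75 at these probe sets with the spike covariate (adjusted p = 0.984 and 0.690).

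**Figure D2:**
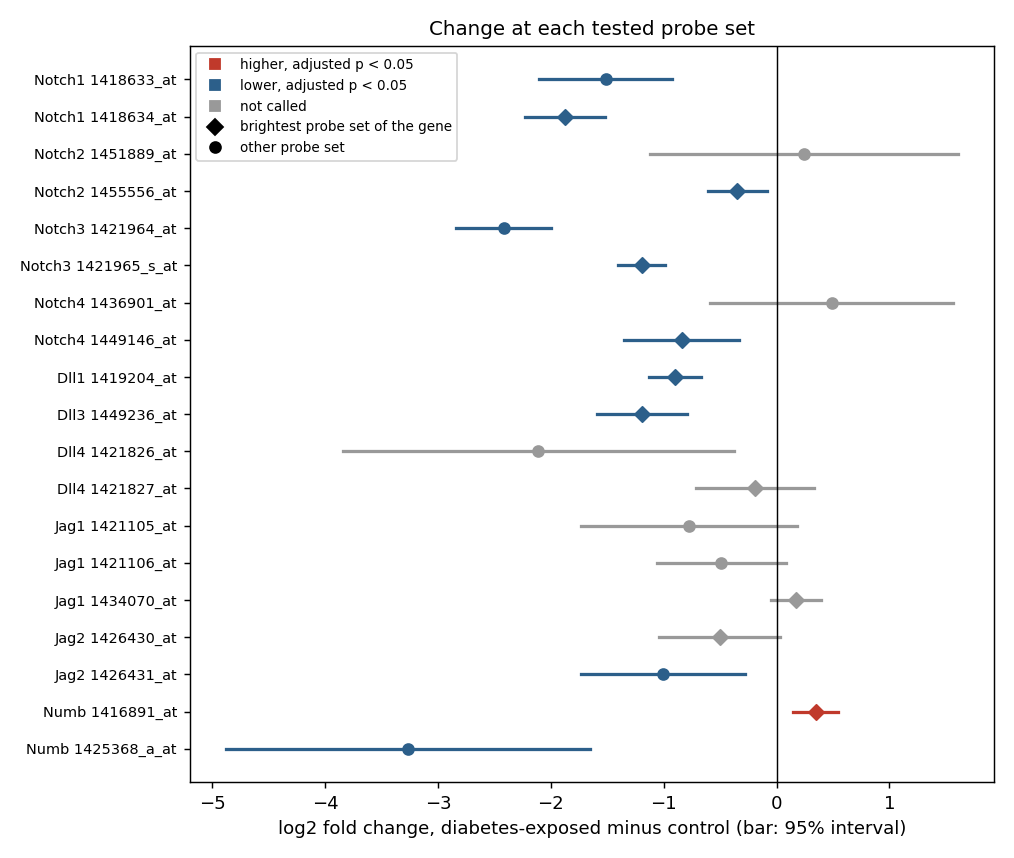
Log2 fold change, diabetes-exposed minus control, of each of 19 tested probe sets with its 95% interval. Blue marks an adjusted p under 0.05 and lower (10 probe sets), red higher (1) and grey not called (8), and diamonds mark the brightest probe set of each gene. Intervals are widest at the dim probe sets of Numb, Dll4 and Notch2.

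The changes of 2 genes on the same array can also be set against each other, which cancels any 1 factor that scales a whole array. Quantile and cyclic loess normalization shift probe sets by their brightness, so the ratios are not free of those. All 6 pairs of receptors and 10 pairs of ligands were compared at their brightest probe sets, as the log2 ratio in each pool. The groups were apart for 5 of the 6 receptor pairs and 5 of the 10 ligand pairs. Each had a two-sided exact permutation p of 0.1, the smallest possible, and 0.16 after Benjamini-Hochberg adjustment over the 16 pairs. Pairs of probe sets of the same gene, compared below, were apart at 7 of 12. The share over all pairs of genes was not computed, so being apart does not by itself show that 2 genes changed unequally. The log2 ratio of Notch1 to Notch2 was -1.23, -0.85 and -1.40 in the exposed pools and 0.42, 0.44 and 0.24 in the control pools, a difference of -1.53. At these probe sets Notch3 changed less than Notch1, since the ratio of Notch1 to Notch3 differed by -0.68. That order depends on the probe set. At the dimmer 1421964_at the log2 fold change of Notch3 was -2.42, a larger fall than the -1.87 of Notch1. The ratio of Notch3 to Notch4 overlapped between the groups (-0.35, exact permutation p = 0.3). The ratio of Dll3 to Jag1 was -1.86, -2.27 and -1.99 in the exposed pools and -0.59, -0.58 and -0.85 in the control pools, a difference of -1.37. That of Dll1 to Jag1 differed by -1.07, and that of Dll1 to Dll3 overlapped (0.29, exact permutation p = 0.4). At the brightest probe sets Notch1 was thus lower relative to each other receptor in every exposed pool than in any control pool. The same held there for Dll1 and Dll3 relative to Jag1.

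Numb, a membrane-associated adaptor that binds Notch and promotes its removal and breakdown, was read in opposite directions by its 2 probe sets. The brightest, 1416891_at, gave 1832.6, 1763.1 and 1957.7 in the exposed pools and 1384.5, 1483.0 and 1494.2 in the control pools. All exposed pools lay above all control pools, and the log2 fold change was 0.35 ± 0.09 (adjusted p = 0.0147). It stayed positive under every scaling (0.32 to 0.66), but the adjusted p was 0.0561 without exposed pool 3, 0.0705 without control pool 1 and 0.0503 without control pool 2. With the spike covariate it was 0.19 (adjusted p = 0.635). The other probe set, 1425368_a_at, where the suffix marks several transcript forms of 1 gene, gave 6.4, 63.6 and 23.2 in the exposed pools and 219.7, 227.1 and 168.6 in the control pools. There Numb was 9.62-fold lower (-3.27 ± 0.71, adjusted p = 0.00787), the largest change of all 19 probe sets and also that with the second widest interval. Exposed pool 2, which had the lowest control ratios of the exposed pools, had the highest signal of the 3, and the part of these ratios was not tested. Without exposed pool 1 the log2 fold change was -2.405, without exposed pool 2 it was -4.06, and with exposed pools 1 and 3 left out it was -1.68 (adjusted p = 0.00989, 0.000359 and 0.0125). The change was -0.38 with the spike covariate (adjusted p = 0.913).

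The promoter of Numb is shown as that of the 1 gene with a higher call.
Numb, minus strand, chr12:83921885-83922184: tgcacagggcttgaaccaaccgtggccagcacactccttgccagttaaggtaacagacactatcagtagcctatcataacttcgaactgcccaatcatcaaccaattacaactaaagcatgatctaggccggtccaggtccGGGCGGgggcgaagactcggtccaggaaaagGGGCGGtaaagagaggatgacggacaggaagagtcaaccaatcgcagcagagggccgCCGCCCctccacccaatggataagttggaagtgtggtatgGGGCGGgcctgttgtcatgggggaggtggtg
Its most upstream window held 4 GC boxes, in capitals, 4 CCAAT boxes and 56% G and C. The sources list 3 promoters for Numb, and which of them was in use in these embryos is not known from the array.

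Probe sets of the same gene were compared within each array in 12 pairs, of which 7 were apart between the groups (exact permutation p = 0.1 each). The log2 fold changes differed by 3.61 between the Numb probe sets, by -1.92 between those of Dll4, by 1.33 between 1436901_at and 1449146_at of Notch4 and by -1.22 between those of Notch3, in each case with the first named identifier in numerical order minus the second. For Jag1 both dim probe sets were lower than the bright one, by -0.94 and -0.66. Those of Notch1 differed by 0.36 with the same call, and those of Notch2 and Jag2 overlapped. Where each probe set lies along its transcript is not given in the sources used here, and the part of transcript position or form in these differences was not tested.

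**Figure D3:**
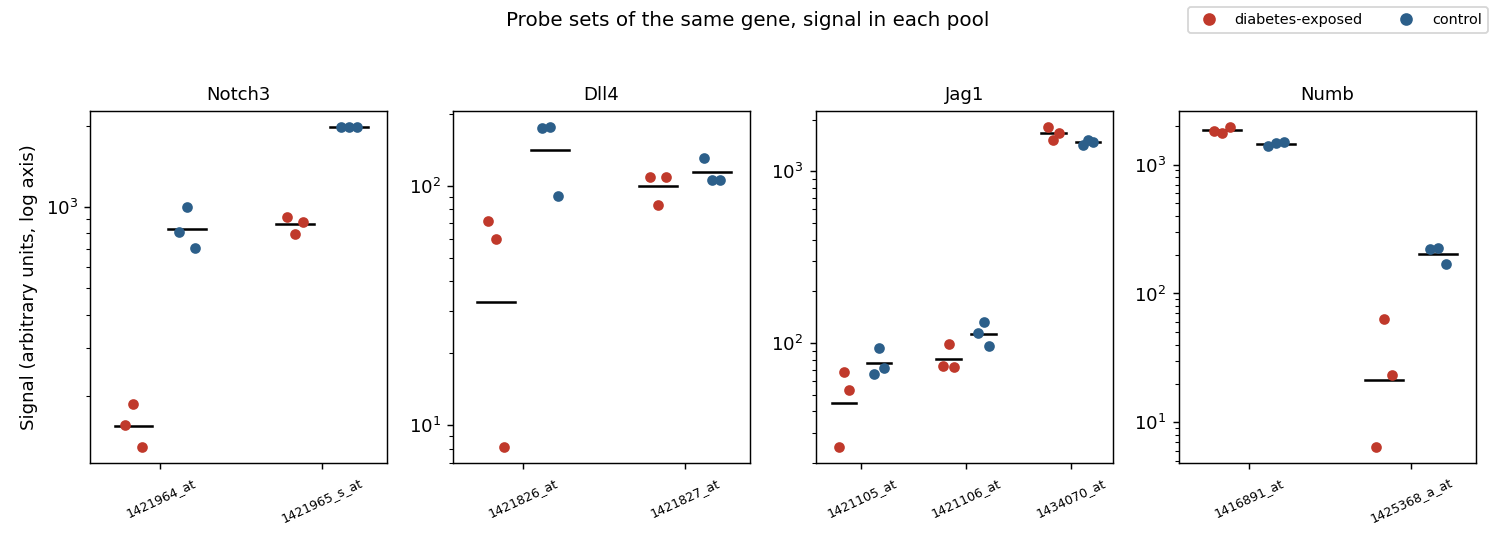
Signal (arbitrary units, log axis) of each probe set of Notch3, Dll4, Jag1 and Numb in 3 diabetes-exposed pools (red) and 3 control pools (blue), with the geometric mean as a bar. Both Notch3 probe sets are lower in every exposed pool, those of Numb move in opposite directions, and the dim probe sets of Dll4 and Numb reach 8.1 and 6.4 in an exposed pool.

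The plot of 6 settings shows how far each change moved with the scaling of the arrays and with their control ratios. The 4 receptors, Dll1 and Dll3 were below 0 and Numb above it in all 6, with Notch2 nearest to 0. Leaving out exposed pools 1 and 3, which had the highest control ratios, kept Notch1 at -1.69, Notch3 at -1.31, Dll1 at -0.82 and Dll3 at -1.56 with 1 exposed pool against 3 controls, where that pool is assumed to vary like the controls. The signs of Dll4, Jag1 and Jag2 varied with the setting. By the methods' t-test, adjusted over all probe sets, Dll1 and Notch3 at 1421964_at passed, and Notch1 at 1418634_at (adjusted p = 0.0543), Notch3 at 1421965_s_at (0.0632), Dll3 (0.0920) and Numb at 1416891_at (0.0675) did not.

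**Figure D4:**
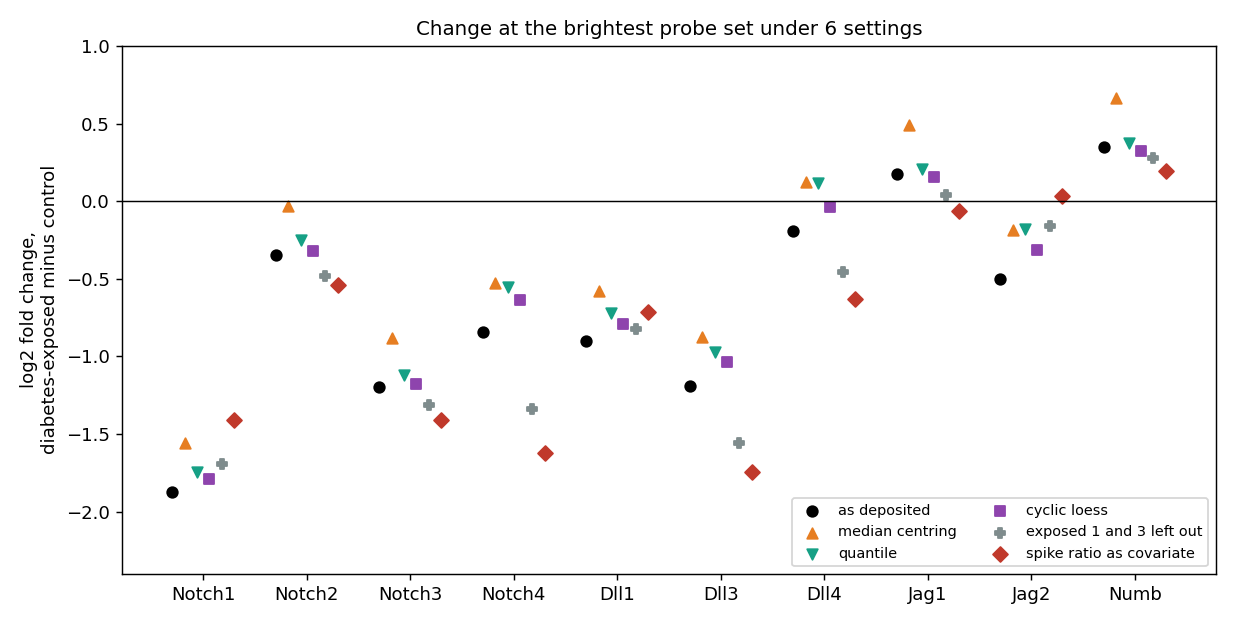
Log2 fold change, diabetes-exposed minus control, at the brightest probe set of each of 10 genes under 6 settings: signals as deposited, 3 other scalings, exposed pools 1 and 3 left out, and the spike ratio as a covariate. Notch1 lies between -1.87 and -1.41, Notch3 between -1.41 and -0.88, and Dll3 between -1.74 and -0.88, while Dll4, Jag1 and Jag2 lie on both sides of 0.

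Of 46 other genes of the pathway, 41 were tested at their brightest probe set, and 13 fell, 4 rose and 24 were not called. The shares among all genes, 19.9% lower and 17.6% higher, stand above. The median log2 fold change of the 41 was -0.17. After median centring their split was 3 lower and 11 higher, where 13.3% of all tested probe sets were lower and 29.0% higher. As in the whole table, the direction of this list thus depended on the scaling. With the spike covariate in the limma fit 1 was lower and 0 were higher (9 and 0 at an unadjusted p under 0.05).

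Genes that modify the receptors and ligands were lower where they were called, with signals as deposited. The shares over all genes were 19.9% lower and 17.6% higher. Of 5 enzymes of receptor glycosylation 2 fell, namely Mfng, a Fringe sugar transferase that tunes ligand choice (-0.48 ± 0.11, adjusted p = 0.00966), and Pofut1, which adds fucose to Notch (-0.34 ± 0.10, adjusted p = 0.0296). Lfng, the Fringe of the somite clock, was not called (0.15, adjusted p = 0.562). Of 4 ubiquitin ligases that drive endocytosis of ligands 3 fell. Neurl1a averaged 130.3 in the exposed pools and 275.9 in the control pools (-1.07 ± 0.17, adjusted p = 0.00219), Mib2 changed by -0.81 (adjusted p = 0.0267), and Mib1, the ligase that Notch ligands chiefly depend on in the embryo, by -0.35 (adjusted p = 0.0217). Neurl1a was called with any 1 pool left out, while Mfng, Pofut1, Mib1 and Mib2 were each lost without at least 1. After median centring the log2 fold changes were -0.02 for Pofut1, -0.04 for Mib1, -0.16 for Mfng, -0.49 for Mib2 and -0.76 for Neurl1a. With the spike covariate in the limma fit their adjusted p ran from 0.130 (Mib1) to 0.964 (Mib2), so none was called.

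Genes of receptor cleavage and of the nucleus each gave 1 lower and 1 higher call, among 8 and 5 tested. Over all genes 19.9% were lower and 17.6% were higher. Of 8 tested genes of receptor cleavage, Furin, the protease that matures the receptor, fell (-0.68 ± 0.12, adjusted p = 0.00282), and Psenen, a gamma-secretase subunit, rose (0.35 ± 0.09, adjusted p = 0.0130), a call lost without at least 1 pool. Adam10, the protease of ligand-induced cleavage, was not called (0.21, adjusted p = 0.269). Of 5 tested nuclear genes, Spen, a corepressor partner of Rbpj, averaged 206.7 ± 24.9 in the exposed pools and 874.9 ± 131.9 in the control pools (SD, n = 3 each). It fell by 2.08 on the log2 scale (adjusted p = 0.000195) and was the 1 gene of the list called with the spike covariate (-1.70, adjusted p = 0.0399). Snw1, a splicing and transcription cofactor also known as SKIP, rose (0.69 ± 0.12, adjusted p = 0.00267). Rbpj itself averaged 1983 in exposed pools and 2009 in control pools (-0.02, adjusted p = 0.889).

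Of 10 genes listed as inhibitors or turnover factors of the pathway, 5 fell and 1 rose, where 19.9% of all genes were lower and 17.6% higher. Dtx4, a Deltex ubiquitin ligase, averaged 1573 in the exposed pools and 2748 in the control pools (-0.81 ± 0.09, adjusted p = 0.000732), and Fbxw7, which marks the intracellular part of Notch for breakdown, 508.7 in exposed and 785.5 in control pools (-0.63 ± 0.10, adjusted p = 0.00215). Nrarp, an inhibitor that is itself induced by Notch, changed by -0.45 (adjusted p = 0.0146), and Itch, a ubiquitin ligase that acts on Notch, by 0.42 (adjusted p = 0.0256). Both of these last calls were lost without at least 1 pool. Numbl, the relative of Numb, was not called (0.00, adjusted p = 0.998). Of 3 non-canonical ligands Dner fell (-0.68 ± 0.17, adjusted p = 0.0150), also lost without at least 1 pool.

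The Hes and Hey genes, which Notch activates, gave 1 higher call and 0 lower among 6 in the limma fit (1 and 1 at an unadjusted p under 0.05). This is near the shares over all genes, 17.6% higher and 19.9% lower. Hey2, a target of the ventricular heart and arteries, averaged 277.9 ± 31.2 in the exposed pools and 165.8 ± 23.5 in the control pools (SD, n = 3 each). It rose by 0.75 on the log2 scale (adjusted p = 0.0115). In the same pools 4 of 5 heart markers rose (1 of 5 with the spike covariate), and the part of heart tissue in the Hey2 values was not tested. Hes1 (0.15, adjusted p = 0.358), Hes5 (0.35, adjusted p = 0.192), Hey1 (0.03, adjusted p = 0.883), Hes7 (0.13, adjusted p = 0.889) and Heyl (-0.49, adjusted p = 0.0594) were not called. Hes5 and Hes7 also stand in the lists of neural progenitor and somite markers. The median of the 6 was 0.14, and with the spike covariate Hey2 had an adjusted p of 0.513.

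**Figure D5:**
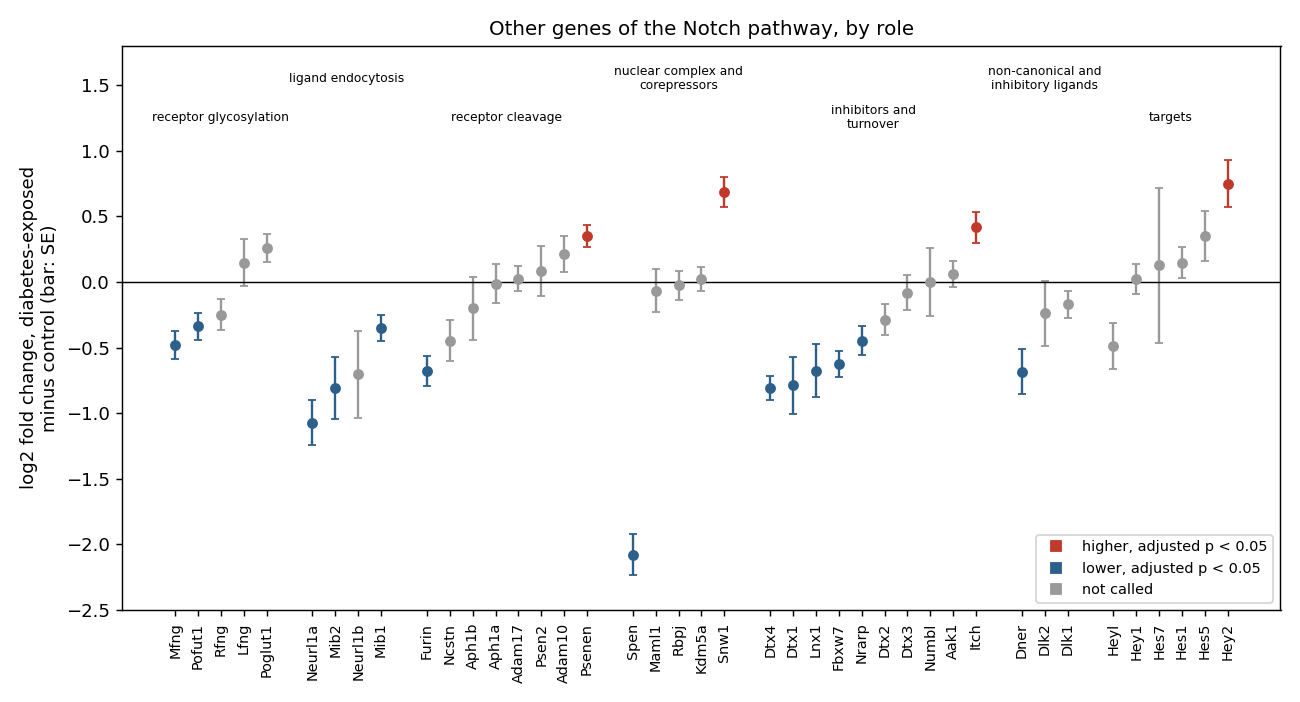
Log2 fold change, diabetes-exposed minus control, with its SE, of 41 other genes of the Notch pathway grouped by role, at the brightest probe set of each. Blue marks lower (13 genes), red higher (4) and grey not called (24). Spen lies lowest at -2.08 and Hey2 highest at 0.75.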

How the data were processed

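Total RNA of 6 pools of whole embryos was labelled and hybridised to Affymetrix arrays, 1 pool per array. The deposited signal intensities are linear values that the authors computed in GCOS with the MAS5 algorithm from matched and mismatched probes, scaled to a common mean per array. Versions of these tools were not given in the sources used. Detection calls were not analysed here.

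Signals were converted to log2 and not scaled again. After removal of 64 control probe sets and of the dimmest 33.3% by mean log2 signal, 30024 of 45101 probe sets were tested with limma 3.58.1 in R 4.3.3 (lmFit, eBayes with a trend of variance on mean), with Benjamini-Hochberg adjustment over all of them. The platform's annotation gave 34958 probe sets 1 symbol, 932 several and 9211 none. Each gene was read at its brightest tested probe set. Alternatives were other scalings, filters, a pseudocount of 32, no trend, the methods' t-test, replicate number as a block, the spike ratio (log2 of middle over 3' signal, averaged over poly-A spikes) as a covariate, pools left out, and other summaries of a gene. Single ratios were compared by two-sided exact permutation tests. All 10 genes are named. From each role in the pathway list, at most 2 rising and 2 falling genes with the smallest adjusted p are named, with others where needed to make a count clear, and Lfng, Adam10, Rbpj, Nrarp and Numbl were added for their roles after their values were seen. The genes, lists and tests were chosen with earlier results of these data known.

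Precision is limited by the 6 arrays. Same-numbered pools of the groups deviated together with correlations of 0.00, 0.08 and 0.12, so the numbers were not taken to pair the samples. Plots were made in Python 3.11.15 with matplotlib 3.10.9.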

Additional observations from a re-analysis of the deposited data

How the results depend on the processing

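With signals as deposited, 10 probe sets of the 10 genes were lower and 1 higher, 6 genes were lower and 1 higher, and 13 pathway genes were lower and 4 higher. Median centring, quantile and loess normalization each gave 7 lower probe sets and 4 lower genes. Median centring gave 2 higher probe sets (Numb and Jag1), 2 higher genes, and 11 higher and 3 lower pathway genes. Over all tested probe sets it gave 29.0% higher and 13.3% lower. Quantile normalization gave 8 lower pathway genes. The median log2 fold change of the 19 probe sets, -0.84 as deposited, was -0.52 after median centring, -0.55 after quantile and -0.67 after loess normalization, -0.72 with a pseudocount and -0.54 with the spike covariate. With no trend in eBayes, 0 probe sets and 0 genes were higher (1 of each at an unadjusted p under 0.05), and 2 pathway genes. The methods' t-test (Welch's), as run here on log2 signals, called 414 probe sets in all, against 10868 with limma. The paper reports far more probe sets passing its own Welch test, which was run in other software. The 414 is thus not the study's count, and the cause of the gap was not tested. Of the 414, 2 belonged to the 10 genes, both lower (Dll1 and Notch3 1421964_at), and 0 were higher. By gene the t-test run here gave 1 lower and 0 higher, and 2 lower and 0 higher pathway genes (unadjusted, 7 lower and 1 higher probe sets, 4 and 1 genes, and 13 and 3 pathway genes). With the spike covariate 363 probe sets were called in all, 4 lower and 0 higher among these genes' probe sets, 3 lower and 0 higher genes, and 1 lower and 0 higher pathway genes. Leaving out exposed pools 1 and 3 gave 5106 calls in all, 0 higher probe sets or genes (1 of each unadjusted), and 8 lower and 1 higher pathway genes. Averaging a gene over all its probe sets gave 7 lower and 0 higher genes, and 18 lower and 2 higher pathway genes. With probe sets of suffix _s_at, _x_at or _a_at left out, 6 genes were lower and 1 higher. The pathway genes were then 9 lower and 4 higher.

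Leaving out 1 pool at a time gave 0 to 2 higher and 7 to 11 lower probe sets, 0 to 2 higher and 4 to 6 lower genes, 2 to 6 higher and 5 to 15 lower pathway genes, medians of -0.94 to -0.74, and 7106 to 12324 calls in all. The fewest calls in all came without control pool 1, the fewest lower pathway genes (5) without control pool 2, and 2 higher genes without exposed pool 2. The sign turned at 1 dim Notch2 probe set, 1451889_at, without exposed pool 1 (-0.09) and without control pool 2 (-0.16), in a range of -0.16 to 0.81 over the 6 removals. It turned at Dll4 1421827_at after median centring (0.13) and quantile normalization (0.12). With the spike covariate it turned at Dll4 1421826_at (0.12), at Jag1 1421105_at (0.29), 1421106_at (0.16) and 1434070_at (-0.065), and at Jag2 1426430_at (0.036). None of these was called as deposited, and the cause was not tested. With the replicate number as a block, 10 probe sets were lower and 1 higher, with 11017 calls in all. The block moved Notch2 1455556_at to an adjusted p of 0.0540 and Dll4 1421826_at to 0.00828, and changed no other call among these probe sets. A filter of 50% left 13 of the probe sets to test. Signals of the dim probe sets of Numb, Dll4, Notch2 and Notch4 limit what can be read there.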
